A study of Homo sapiens with 2 samples.

Results

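The genes described are 7 keratins of PC9, an EGFR-mutant cell line from a human lung adenocarcinoma: KRT7, KRT8, KRT18, KRT19, KRT15, KRT80 and KRT81. They were taken by symbol and are 7 of the 36601 genes measured. KRT19, KRT8 and KRT18 entered the set because their levels were lower in cells with PGAM1 sgRNAs, so those values are given as a description, with no test. A further 43 keratin genes were measured, and 3 of them reached 1 CPM (counts per 1000000 gene UMIs) over all cells, namely KRT10, KRT16 and KRT13.

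The cells were transduced with a pooled lentiviral sgRNA library, and 10x Genomics 3′ sequencing read the transcriptome and the sgRNA of each cell. All groups are PC9 cells from 1 gene expression library, infected in the presence of 8 ug/ml polybrene and kept under 1 ug/ml puromycin. The groups were 333 cells with PGAM1 sgRNAs, 859 with ATF4 sgRNAs, 94 with sgRNAs labelled MYC, 1182 with CTCF sgRNAs, 836 with JUN sgRNAs, 1552 with CTNNB1 sgRNAs and, as controls, 700 with non-targeting sgRNAs. The labels call the screen a knockout but also state that the cells express dCas9, the nuclease-dead form of Cas9, so the kind of perturbation is uncertain, and they name both day 7 and day 8 of culture. All sgRNAs shared 1 pool and 1 culture, so a p-value here speaks to the spread among sgRNAs alone, and part of that spread may be technical.

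Keratins are the intermediate filament proteins of epithelial cells. A filament is built from pairs of an acidic type I chain and a basic type II chain, and an unpaired chain is usually degraded. KRT8 (type II) and KRT18 (type I) are the first pair made in simple epithelia, and KRT7 (type II) and KRT19 (type I) join them in ducts, airways and many adenocarcinomas. KRT7 staining is widely used to recognise lung adenocarcinoma, and fragments of KRT19 are measured in serum as a lung tumour marker. KRT15 (type I) is typical of basal cells of stratified epithelia, KRT80 (type II) is found in many epithelia, and KRT81 (type II) is a hair keratin that some carcinomas express.

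The type II genes KRT7, KRT8, KRT80 and KRT81 lie together on chromosome 12, as does the type I gene KRT18, and the type I genes KRT15 and KRT19 are neighbours on chromosome 17 (GRCh38.p14). KRT80 spans chr12:52168996-52192014, KRT7 chr12:52233243-52255853, KRT81 chr12:52285913-52291534, KRT8 chr12:52897191-52949860 and KRT18 chr12:52948855-52952906. KRT15 spans chr17:41513745-41518890 and KRT19 chr17:41523617-41528308. The annotated spans of KRT8 and KRT18 overlap at their ends, and whether the counting used strand was not stated, so reads from the shared stretch could be counted for either gene. KRT7 has an antisense gene, KRT7-AS, which held only 11 UMIs (unique molecular identifiers, each of which stands for 1 captured transcript).

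Sequence upstream of a start site was available for 1 of the 7 genes, KRT8, and is shown beside that of KRT10, because these are the keratins with a sequence that moved in opposite directions with ATF4 sgRNAs. Both are the 250 bases before the start that RefSeq gives (GRCh38.p14, minus strand), at chr12:52926470-52926719 for KRT8 and chr17:40822615-40822864 for KRT10, written 5′ to 3′ with motif matches in capitals. The KRT8 start lies inside the annotated span of the gene, and which start these cells use was not determined.
KRT8: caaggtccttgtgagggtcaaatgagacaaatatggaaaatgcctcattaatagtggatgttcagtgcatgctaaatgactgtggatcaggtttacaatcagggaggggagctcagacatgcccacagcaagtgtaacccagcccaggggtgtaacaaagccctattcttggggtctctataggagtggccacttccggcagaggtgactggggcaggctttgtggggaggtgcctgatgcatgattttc
KRT10: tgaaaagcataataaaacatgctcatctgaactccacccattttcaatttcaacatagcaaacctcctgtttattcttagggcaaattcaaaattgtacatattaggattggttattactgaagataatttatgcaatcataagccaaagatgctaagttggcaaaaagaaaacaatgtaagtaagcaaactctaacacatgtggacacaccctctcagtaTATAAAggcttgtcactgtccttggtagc
The motifs searched on both strands were TGANTCA of AP-1, the factor that holds JUN, TGATGNAAT, the composite element of ATF4 with a C/EBP protein, the TATA box TATAAA and the GC box GGGCGG. KRT10 held 1 TATA box, which begins at position -29 from the start, and TATAAA occurs in 10.7% of the 35093 RefSeq windows of this length. No match of the other motifs was found in either window, nor one of TATAAA in that of KRT8. The other motifs occur in 6.57% (AP-1), 0.889% (ATF4 composite) and 42.6% (GC box) of all windows.

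After filtering, 10142 cells had a median of 12239.5 gene UMIs (1011 to 39824), and 5556 of them (54.8%) were assigned to a single sgRNA. The cells of an sgRNA were added up to 1 sum, and the 34 sums with at least 20 cells held 267726 to 6430143 UMIs, and levels are given as CPM of these sums. The target's own transcript passed the test of edgeR, described below, for PGAM1 (log2 fold change -1.66), CTNNB1 (-0.90) and ATF4 (-0.51), but not for JUN (-0.14), CTCF (-0.18) or MYC, which was higher with the sgRNAs labelled MYC (0.62, adjusted p = 0.48). The epithelial genes EPCAM (268 CPM) and CDH1 (50.2 CPM) were present, whereas the lung lineage genes NKX2-1 (0.31 CPM), NAPSA (0.37 CPM) and SFTPB (0.015 CPM) were near 0. The mesenchymal filament gene VIM stood at 1.29 CPM, and 10 of 13 markers of fibroblasts, blood and endothelial cells lay under 1 CPM. Those above it were CD68 (19.5 CPM), CDH5 (2.03 CPM) and COL1A1 (1.90 CPM).

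The 7 keratins took 1.07% of all gene UMIs, and KRT18, KRT7, KRT19 and KRT8 made up 99.6% of that. KRT18 was the most abundant at 4435 CPM over all cells, followed by KRT7 at 2448 CPM, KRT19 at 2204 CPM and KRT8 at 1610 CPM. Since 3′ counts give 1 UMI per transcript, these levels need no scaling by gene length. Each of these 4 genes had a UMI in at least 99.0% of cells, with medians of 51 UMIs per cell for KRT18, 29 for KRT7, 25 for KRT19 and 19 for KRT8. Type I transcripts of the set exceeded type II transcripts 1.64-fold.

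The other 3 members were scarce. KRT15 stood at 29.3 CPM with a UMI in 27.7% of cells, and KRT80 at 16.3 CPM with a UMI in 18.4% of cells. No group of cells was identified as another cell type, so free RNA could not be gauged and such shares may include background. KRT81 held 150 UMIs in all (1.12 CPM), below the filter on low counts, so 6 of the 7 members were tested. It is also close in sequence to the hair keratins KRT86 (89 UMIs) and KRT83 (18 UMIs), and how reads shared between them were counted is not known here, which leaves its level uncertain. Among keratins outside the set, KRT10, a keratin of differentiating epidermis, was at 255 CPM, KRT16, which is induced in wounded epidermis, at 23.7 CPM, and KRT13, a keratin of mucosal epithelia, at 1.40 CPM.

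The lowest levels of KRT19 were found with PGAM1 sgRNAs. PGAM1 encodes phosphoglycerate mutase, an enzyme of glycolysis. KRT19 stood at 1533, 1601, 1560 and 1567 CPM with PGAM1 sgRNAs 1 to 4, against 2165, 2212, 2260 and 2550 CPM with non-targeting sgRNAs 1 to 4. All 4 PGAM1 values lay below all 4 non-targeting values, and they were close to each other. The log2 fold change was -0.57 ± 0.054 (SE), a 1.49-fold lower level.

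KRT8 and KRT18, the primary pair, were lower by less. KRT8 stood at 1205, 1321, 1314 and 1185 CPM with PGAM1 sgRNAs and at 1588, 1567, 1614 and 1761 CPM with non-targeting sgRNAs (log2 fold change -0.40 ± 0.049). KRT18 stood at 3446, 3928, 3645 and 3368 CPM with PGAM1 sgRNAs and at 4320, 4230, 4433 and 4703 CPM with non-targeting sgRNAs (log2 fold change -0.32 ± 0.049). Neither gene's groups overlapped. KRT7, the other abundant type II keratin, did overlap, with 2208, 2409, 2441 and 2411 CPM with PGAM1 sgRNAs, against 2385, 2509, 2547 and 2847 CPM with non-targeting sgRNAs (log2 fold change -0.14 ± 0.067). That of KRT7 was -0.08 without non-targeting sgRNA 4 and -0.27 in cells with at most 10% mitochondrial UMIs. Non-targeting sgRNA 4 was the highest of the 4 controls for all of these genes.

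KRT15 was at 22.0, 5.41, 22.5 and 21.7 CPM with PGAM1 sgRNAs 1 to 4, against 25.0 to 32.3 CPM with non-targeting sgRNAs, so that its groups did not overlap either (log2 fold change -0.59 ± 0.24, and -0.39 without PGAM1 sgRNA 2). KRT80 averaged 16.8 ± 3.30 CPM with PGAM1 sgRNAs and 18.6 ± 4.55 CPM with non-targeting sgRNAs (SD, n = 4 each). Of the 6 keratins tested in this contrast, 3 were past the threshold, all lower, and 0.389% of all genes were past it (0.303% lower and 0.0864% higher). Since the set was chosen on this contrast, nothing is read from that count. As KRT19 and KRT18 are type I chains and KRT7 is type II, the summed type I level per type II level differed as well. It was 1.46, 1.48, 1.39 and 1.37 with PGAM1 sgRNAs and 1.63, 1.58, 1.61 and 1.57 with non-targeting sgRNAs.

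**Figure D1:**
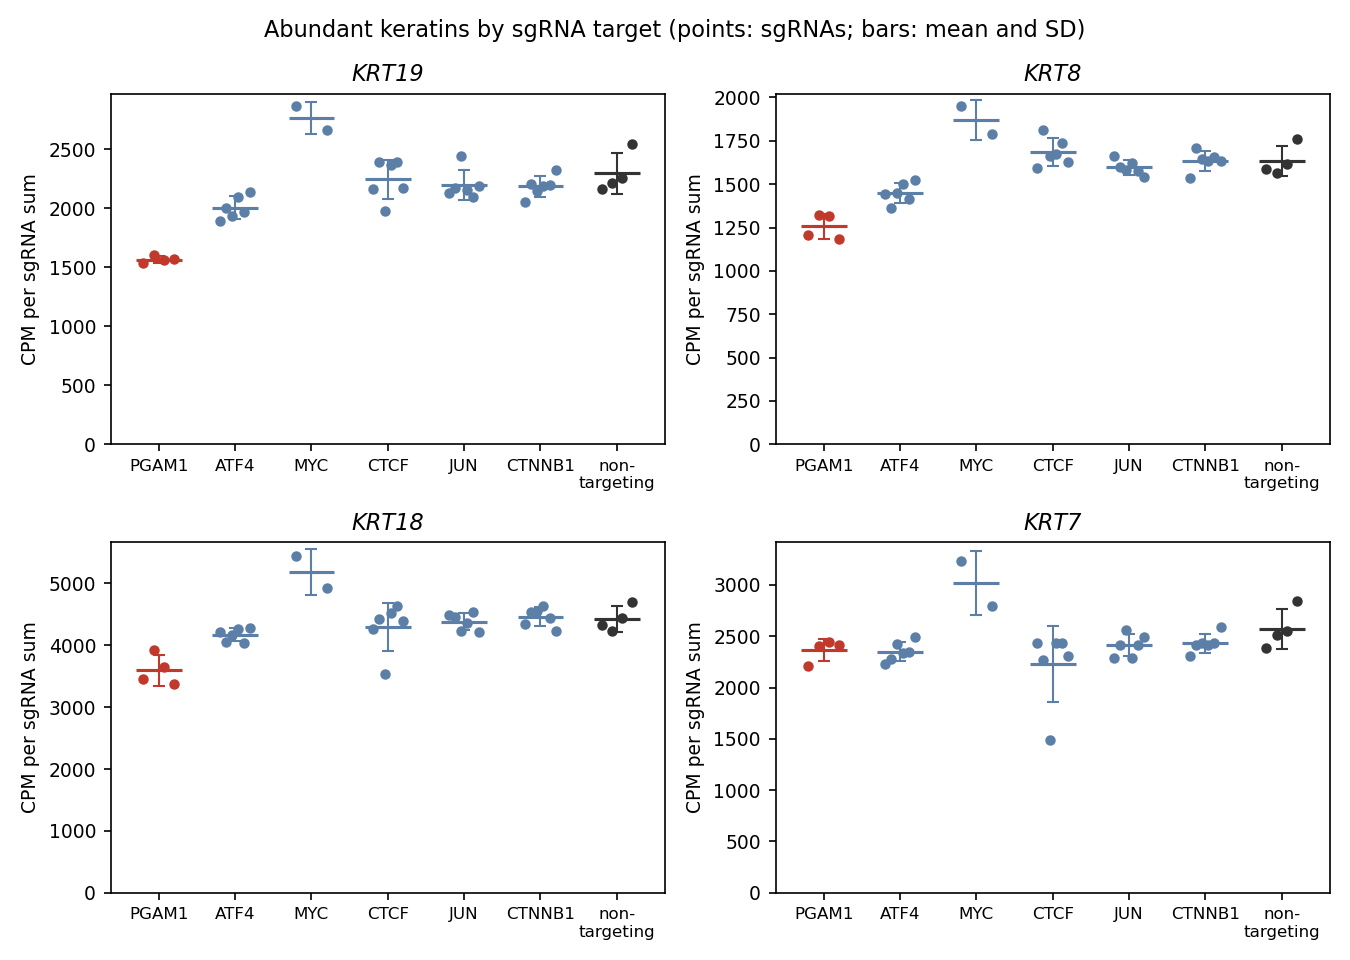
Level of KRT19, KRT8, KRT18 and KRT7 (CPM of the counts summed per sgRNA, axis from 0) by target, with 1 point per sgRNA and bars for the mean and SD. The 4 PGAM1 points lie below all 4 non-targeting points for KRT19, KRT8 and KRT18 but not for KRT7, and 1 CTCF point, at 1490 CPM of KRT7, lies far below the others.

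Cell states differed between these groups and are given beside the keratins. Cells scored as G1 made up 52.3% of PGAM1 cells and 58.7% of non-targeting cells, the median mitochondrial share was 9.71% against 11.2%, and the PSCA and AGR2 cluster described below held 13.8% against 19.3%. Within G1, KRT19 was at 1826 CPM in PGAM1 cells and 2691 CPM in non-targeting cells. In S phase the levels were 1381 CPM in PGAM1 cells and 1781 CPM in non-targeting cells, and in G2/M 1318 and 1717 CPM in the same order. KRT19, KRT8 and KRT18 were each lower in PGAM1 cells in 6 of the 6 clusters with at least 20 cells of both groups, with median log2 differences of -0.41, -0.31 and -0.25. KRT7 was lower in 4 of the 6 and was higher in the INHBA and CYP1B1 cluster, at 2600 CPM in PGAM1 cells and 2232 CPM in non-targeting cells. These are the cells on which KRT19, KRT8 and KRT18 were chosen, so the values within phases and clusters are a description too, and the part of cell state in them was not tested.

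Cells left out of these sums allowed the same contrast to be measured again. In 103 PGAM1 cells and 112 non-targeting cells the sgRNA had only 2 to 4 UMIs, too few for the main assignment, and these cells played no part in choosing the genes. They come from the same culture and library, so they are not an independent experiment. The PGAM1 transcript fell here too (log2 fold change -1.71 ± 0.22, edgeR adjusted p = 2.3e-07).

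In the held-out cells KRT18 was at 3528, 3756, 3831 and 3554 CPM with PGAM1 sgRNAs 1 to 4, against 4560, 4540, 4049 and 4739 CPM with non-targeting sgRNAs 1 to 4. The groups did not overlap, and the log2 fold change of -0.29 ± 0.085 (unadjusted p = 0.00098, edgeR adjusted p = 0.26) did not pass the threshold. KRT8 was at 1401, 1536, 1352 and 1264 CPM with PGAM1 sgRNAs, against 1643, 1654, 1436 and 2028 CPM with non-targeting sgRNAs. Its groups overlapped at non-targeting sgRNA 3, and its log2 fold change of -0.29 ± 0.10 did not pass either (unadjusted p = 0.0045, edgeR adjusted p = 0.43).

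KRT19, which had the greatest difference of the 4 abundant keratins in the main cells, showed little in the held-out cells. Its levels were 1666, 1948, 2247 and 1932 CPM with PGAM1 sgRNAs, against 2215, 2267, 1787 and 1910 CPM with non-targeting sgRNAs, and the groups overlapped widely. The log2 fold change was -0.07 ± 0.11 (edgeR adjusted p = 0.96), and its 95% interval, -0.29 to 0.15, does not reach the -0.57 of the main cells. KRT7 averaged 2560 ± 464 CPM with PGAM1 sgRNAs and 2233 ± 96.3 CPM with non-targeting sgRNAs (SD, n = 4 each). On the log2 scale it differed by 0.21 ± 0.098 (edgeR adjusted p = 0.71). Without PGAM1 sgRNA 3, the highest of the 4 at 3152 CPM, this was 0.10. Its sign was opposite to that of the main cells, and whether the 2 sets of cells differ was not tested. Of the members, 0 passed edgeR's threshold in the held-out cells and 0.0689% of all genes did. At an unadjusted p under 0.05 there were 3 of 6 members and 6.33% of all genes. These members were KRT18 and KRT8, both lower, and KRT7, which was higher (edgeR unadjusted p = 0.036).

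The summed type I level per type II level in the held-out cells was 1.51, 1.43, 1.35 and 1.42 with PGAM1 sgRNAs and 1.72, 1.71, 1.64 and 1.57 with non-targeting sgRNAs. These groups did not overlap, and the values were close to those of the main cells, but the sums behind them differed. In the main cells mean levels were lower with PGAM1 sgRNAs for type I (5180 against 6746 CPM) and type II (3640 against 4224 CPM). In the held-out cells that of type I was lower (5637 against 6537 CPM) and that of type II was not (3964 against 3935 CPM). The held-out groups also differed in G1 share, at 65.0% of PGAM1 cells and 67.0% of non-targeting cells, and in median mitochondrial share, at 8.81% and 11.4% in the same order, and the part of these differences in the result was not tested.

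**Figure D2:**
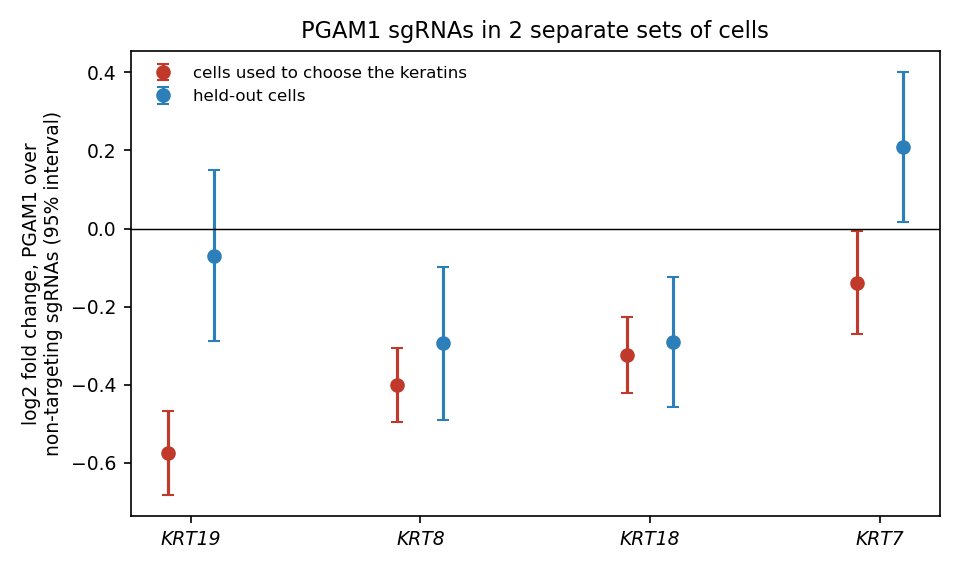
Log2 fold change of the 4 abundant keratins, PGAM1 over non-targeting sgRNAs, with 95% intervals, in the cells that served to choose the keratins (red) and in the held-out cells (blue). KRT8 and KRT18 lie below 0 in both, KRT19 lies at -0.57 in red but at -0.07 in blue, and KRT7 changes sign.

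KRT19 and KRT8 fell with ATF4 sgRNAs, by less than with PGAM1 sgRNAs. ATF4 is a transcription factor that directs the cell's answer to amino acid shortage and other stress. This contrast was not used to choose the set, but it shares its non-targeting sums with the PGAM1 contrast. KRT19 ranged from 1889 to 2141 CPM with ATF4 sgRNAs (median 1988, n = 6), against 2165 to 2550 CPM with non-targeting sgRNAs. KRT8 ranged from 1365 to 1527 CPM with ATF4 sgRNAs (median 1446), against 1567 to 1761 CPM with non-targeting sgRNAs. The groups did not overlap for either gene.

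The log2 fold changes were -0.22 ± 0.048 for KRT19 (edgeR's quasi-likelihood test, Benjamini-Hochberg adjusted p = 0.0030) and -0.19 ± 0.043 for KRT8 (adjusted p = 0.0041). KRT7 (-0.15 ± 0.060, adjusted p = 0.21) and KRT18 (-0.11 ± 0.044, adjusted p = 0.21) did not pass, and their groups overlapped. KRT15 (-0.14 ± 0.17) and KRT80 (-0.01 ± 0.17) had wide errors. Thus 2 of 6 tested members were called, both lower, where 1.75% of all genes were called and 1.15% were called lower, and the median over the members was -0.15 beside 0.0031 over all genes. Both calls rested on non-targeting sgRNA 4: without it the adjusted p was 0.070 for KRT19 and 0.061 for KRT8. With a stricter sgRNA rule (at least 10 UMIs and 90% of a cell's sgRNA UMIs) both were lost too, at -0.25 ± 0.070 for KRT19 (edgeR adjusted p = 0.059) and -0.16 ± 0.057 for KRT8 (0.20), so that the fold of KRT19 was no smaller there. In cells with at most 10% mitochondrial UMIs 3 members passed, KRT19 at -0.39 (edgeR adjusted p = 0.00017), KRT8 at -0.33 (0.0018) and KRT7 at -0.26 (0.0498). Over all genes 64 were called in that setting, against 203 as reported.

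The type I per type II level with ATF4 sgRNAs was 1.62 ± 0.040 (SD, n = 6), against 1.60 ± 0.028 (n = 4) with non-targeting sgRNAs. In 7 clusters with enough cells, KRT8 was lower in ATF4 cells in 7, KRT19 and KRT7 in 6 each, and KRT18 in 5. In held-out cells with ATF4 sgRNAs (n = 5), KRT19 was at 0.0013 ± 0.10 on the log2 scale (95% interval -0.20 to 0.20, edgeR adjusted p = 0.99) and KRT8 at -0.10 ± 0.090 (edgeR adjusted p = 0.86). The lower KRT19 was therefore not seen in the held-out cells, while the ATF4 transcript was lower there as well (-0.58 ± 0.11, edgeR adjusted p = 0.0047).

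KRT10, a type I keratin outside the set, rose with ATF4 sgRNAs. It ranged from 283 to 334 CPM with ATF4 sgRNAs (median 306, n = 6), against 207 to 253 CPM with non-targeting sgRNAs, with no overlap. The difference on the log2 scale was 0.31 ± 0.060 (edgeR adjusted p = 0.00040), and 0.605% of all genes were called higher. With cells scored as G1 alone the adjusted p was 0.11, and with the stricter sgRNA rule 0.059. KRT16 went the other way, at 11.2 ± 2.88 CPM with ATF4 sgRNAs and 21.5 ± 3.02 CPM with non-targeting sgRNAs (SD, n = 6 and 4). Its log2 fold change of -0.80 ± 0.24 just missed the threshold (edgeR adjusted p = 0.058) and passed it without the filter on low counts (adjusted p = 0.00069). In the held-out cells KRT10 had a log2 fold change of 0.24 ± 0.14 and KRT16 one of -1.27 ± 0.45, with edgeR adjusted p-values of 0.74 and 0.38.

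**Figure D3:**
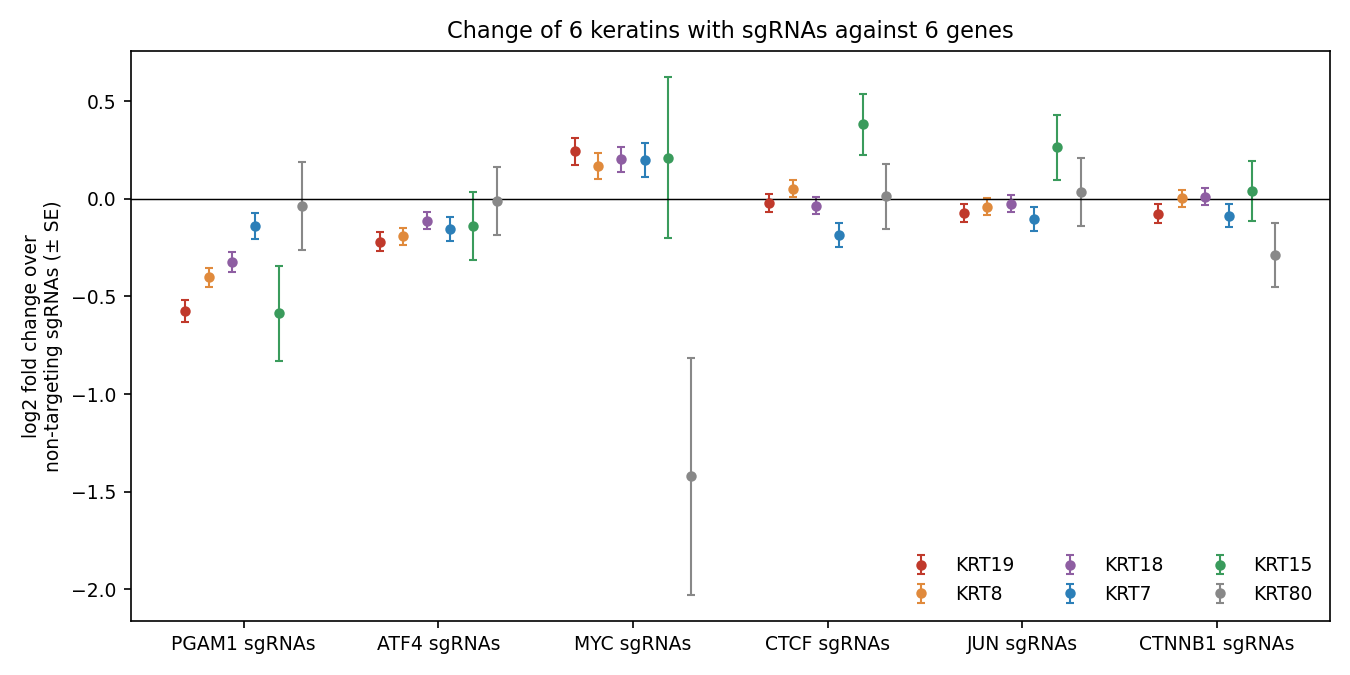
Log2 fold change over non-targeting sgRNAs (± SE, edgeR) of the 6 tested keratins for each target. The abundant keratins lie below 0 with PGAM1 and ATF4 sgRNAs and above 0 with the sgRNAs labelled MYC, and KRT80 with the sgRNAs labelled MYC, at -1.42, rests on 2 and 3 UMIs.

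All 4 abundant keratins were higher with the 2 sgRNAs labelled MYC, a transcription factor of growth, but none passed the threshold. KRT19 stood at 2865 and 2668 CPM with them, against 2165 to 2550 CPM with non-targeting sgRNAs, and KRT18 at 5450 and 4927 CPM, against 4230 to 4703 CPM. These groups did not overlap, although the 2 sums held only 68 cells. The share of all genes without overlap is not given for any contrast here, so nothing is read from non-overlap alone. The log2 fold changes were 0.24 ± 0.070 for KRT19 (edgeR adjusted p = 0.15), 0.20 ± 0.062 for KRT18 (0.21), 0.20 ± 0.088 for KRT7 (0.55) and 0.17 ± 0.065 for KRT8 (0.46). Without MYC sgRNA 2 that of KRT7 was 0.11.

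Of the members, 0 passed edgeR's threshold with the sgRNAs labelled MYC, where 0.277% of all genes did. At an unadjusted p under 0.05 there were 5 of 6 members and 7.83% of all genes. These members were KRT7, KRT8, KRT18 and KRT19, all higher, and KRT80, which was lower. DESeq2 called 2, KRT19 (adjusted p = 0.022) and KRT18 (0.025), and leaving out non-targeting sgRNA 4 let KRT19 pass in edgeR (0.019). In G1 cells alone, where 1 such sgRNA had enough cells, KRT8 was at -0.03. KRT80 held 2 and 3 UMIs in these sums, which is too little to read. Cells scored as G1 were 68.1% of cells with sgRNAs labelled MYC and 58.7% of non-targeting cells, and their part in the levels was not tested.

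With CTCF sgRNAs no keratin passed the threshold, and 1 of the 6 sgRNAs stood apart from the rest. CTCF is the insulator protein of chromatin loops. Of the members, 0 passed edgeR's threshold and 0 passed that of DESeq2, and 0.0259% of all genes passed in edgeR (0.0173% higher and 0.00864% lower). At an unadjusted p under 0.05 there were 2 of 6 members and 6.23% of all genes. KRT7 ranged from 1490 to 2437 CPM with CTCF sgRNAs (median 2369, n = 6), against 2385 to 2847 CPM with non-targeting sgRNAs, and its log2 fold change of -0.19 ± 0.060 did not pass (edgeR adjusted p = 0.51). Without CTCF sgRNA 3 it was -0.11. KRT15 ranged from 27.6 to 64.0 CPM with CTCF sgRNAs (median 34.6), against 25.0 to 32.3 CPM, and on the log2 scale it differed by 0.38 ± 0.16 (edgeR adjusted p = 0.78). Without CTCF sgRNA 2 this was 0.24, and in cells with at most 10% mitochondrial UMIs it was 0.19.

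The lowest KRT7 and the highest KRT15 were both those of CTCF sgRNA 3. This sgRNA also had the lowest KRT18 (3538 CPM) and KRT10 (178 CPM) and the highest KRT80 (40.0 CPM) and KRT16 (70.4 CPM) of the 6. In the held-out cells, CTCF sgRNA 3 again had the lowest KRT7 (1760 CPM), KRT18 (3304 CPM) and KRT10 (174 CPM) and the highest KRT15 (59.8 CPM) and KRT16 (83.8 CPM) of the CTCF sgRNAs. KRT80 was not high there, with 1 UMI. This held-out sum came from only 16 cells and held 10 UMIs of KRT15, 14 of KRT16 and 29 of KRT10. KRT16 over all CTCF sgRNAs differed by 0.73 ± 0.18 on the log2 scale (edgeR adjusted p = 0.12), which passed without CTCF sgRNA 1 (0.023), without CTCF sgRNA 6 (0.035) and without the filter on low counts (7.3e-05).

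CTCF sgRNA 3 also had the highest share of its cells in a small cluster, made without the keratin genes. This cluster 8, led by SYCE3 and PRSS2, contained 85 cells, of which 59 had an assigned sgRNA, and 52 of those 59 carried CTCF sgRNAs. It held 4.40% of CTCF cells and 0.143% of non-targeting cells, and 33.3% of the cells with CTCF sgRNA 3, 11.1% of those with sgRNA 2, 4.45% of those with sgRNA 4, 0.291% of those with sgRNA 1 and none with sgRNAs 5 and 6.

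KRT15 stood at 129 CPM (80 UMIs) in CTCF cells of this cluster, 32.4 CPM in CTCF cells outside it and 28.2 CPM in non-targeting cells. KRT16 stood at 110 CPM (68 UMIs), 30.7 CPM and 20.7 CPM in the same order, and KRT80 at 30.8 CPM (19 UMIs), 17.2 CPM and 17.6 CPM. The exact 95% Poisson intervals, which cover counting error only, did not overlap between cluster 8 and the other cells for KRT15 and KRT16. KRT10 and KRT7 were lower in the cluster, KRT10 at 121, 238 and 239 CPM and KRT7 at 1568, 2386 and 2503 CPM in that order. Without the cells of cluster 8 the log2 fold change of KRT15 with CTCF sgRNAs was 0.21 in place of 0.38 and that of KRT16 was 0.58 in place of 0.73, an alternative chosen after seeing the data. The cluster comes from 1 library and was found in these cells, so no test was made of it.

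**Figure D4:**
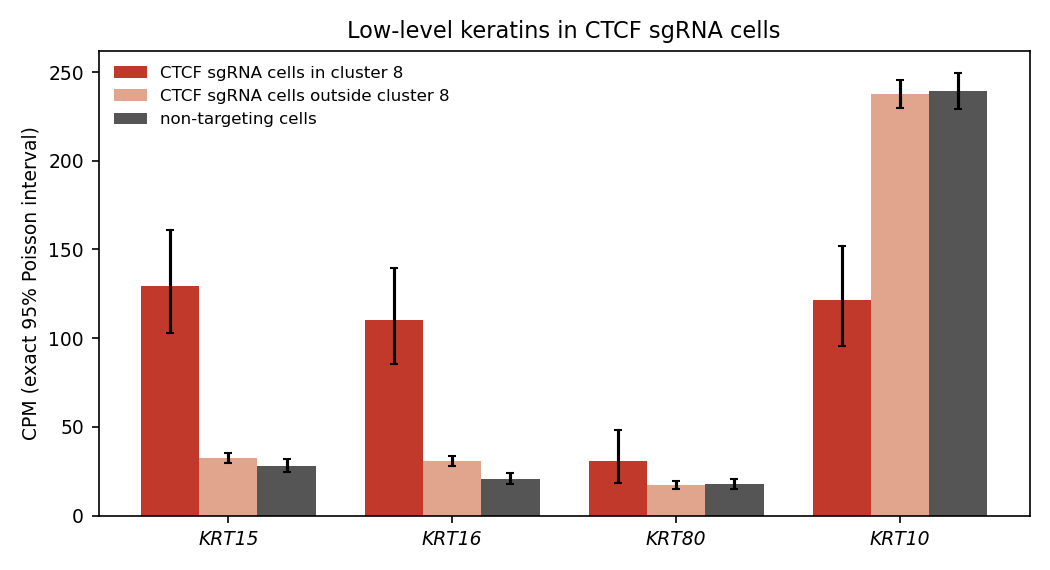
Level (CPM, axis from 0, exact 95% Poisson intervals) of KRT15, KRT16, KRT80 and KRT10 in CTCF sgRNA cells of cluster 8, CTCF sgRNA cells outside it and non-targeting cells. KRT15 and KRT16 are at 129 and 110 CPM in cluster 8, above both other groups, and KRT10 is at 121 CPM, below them.

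With JUN and CTNNB1 sgRNAs no keratin passed the test. JUN is a subunit of AP-1, and CTNNB1 encodes beta-catenin, which joins cadherins to actin and carries the Wnt signal. The 6 tested members lay between -0.10 and 0.27 (log2 fold change) with JUN sgRNAs and between -0.29 and 0.04 with CTNNB1 sgRNAs. In each of these contrasts 0 members passed in edgeR or in DESeq2, and 0.00864% of all genes passed in edgeR. At an unadjusted p under 0.05 there were 0 members in either contrast, and 4.63% of all genes with JUN sgRNAs and 4.3% with CTNNB1 sgRNAs. The 95% interval of KRT19 was -0.17 to 0.020 with JUN sgRNAs and -0.17 to 0.018 with CTNNB1 sgRNAs.

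Ordered by mean level, KRT19 was highest with the sgRNAs labelled MYC (2766 CPM), followed by non-targeting (2297 CPM), CTCF (2246 CPM), JUN (2198 CPM), CTNNB1 (2187 CPM), ATF4 (2006 CPM) and PGAM1 sgRNAs (1565 CPM). The 4 middle groups, from non-targeting to CTNNB1, overlapped in their ranges. The range of ATF4 sgRNAs overlapped those of CTCF, JUN and CTNNB1 sgRNAs as well, but not that of non-targeting sgRNAs. KRT7 followed another order, in which PGAM1 sgRNAs (2367 CPM), ATF4 sgRNAs (2350 CPM) and CTCF sgRNAs (2228 ± 368 CPM) did not differ beyond the spread of CTCF sgRNAs.

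Across the 34 sgRNAs, KRT8 and KRT19 varied together most closely (Pearson r = 0.92 of log2(CPM + 1)), with 0.86 for KRT18 and KRT19 and 0.84 for KRT8 and KRT18. KRT7 followed KRT8 loosely (0.26). Without the 4 PGAM1 sgRNAs, r for KRT8 and KRT19 was 0.82 and that for KRT7 and KRT18 was 0.81 in place of 0.61. The sums left still held CTCF sgRNA 3, the lowest of them in KRT7 (1490 CPM) and KRT18 (3538 CPM). They also held MYC sgRNA 2, the highest in both (3235 and 5450 CPM), and the part of these 2 sgRNAs in r was not tested. In 691 single control cells thinned to 5000 UMIs, r ran from 0.24 (KRT18 and KRT19) to 0.57 (KRT8 and KRT18, the primary pair). All sums share 1 library and the controls' culture, so these values are descriptions.

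Among 2640 genes with a mean of at least 50 CPM, the pattern most like KRT19 over the 34 sgRNAs was that of AKR1B10, an aldo-keto reductase (r = 0.88), followed by FOS, a subunit of AP-1 (0.83), the surface antigen PSCA (0.77), PGAM1 itself (0.76) and the reductase PTGR1 (0.74). Without the PGAM1 sgRNAs these values were 0.73, 0.49, 0.70, -0.06 and 0.50. The genes most like KRT7 were PGLS, IRF9, NDUFAF3, FXYD5 and S100A6, at 0.82 to 0.86, and without the PGAM1 sgRNAs all 5 were at 0.86 to 0.91. The part of single sgRNAs with extreme KRT7 in these values was not tested. The 2 lists share no gene.

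Few of the filament partners and epithelial genes around the keratins passed the test. Of the 36 other keratins on the list, 2 could be tested, KRT10 and KRT16. Of 20 filament linkers and desmosome genes, 15 were tested and 0 passed in edgeR with any of the 6 targets. The same held for the 7 tested of 15 other intermediate filament genes. Of 20 epithelial identity genes, all tested, 1 passed, ESRP1, an epithelial splicing regulator, which fell with ATF4 sgRNAs to 63.6 ± 3.63 CPM, against 81.6 ± 8.57 CPM with non-targeting sgRNAs (log2 fold change -0.41 ± 0.080, edgeR adjusted p = 0.00074). Of 19 tested actin and tubulin genes, 1 passed, ACTG1, the cytoplasmic gamma-actin, which fell with ATF4 sgRNAs to 2523 ± 98.9 CPM, against 2842 ± 142 CPM with non-targeting sgRNAs (-0.20 ± 0.046, adjusted p = 0.0063).

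At an unadjusted p under 0.05 the counts of these lists were at most 7, for the 20 epithelial genes with ATF4 sgRNAs, where 12.4% of all genes were under it. With PGAM1 sgRNAs, where 8.72% of all genes were under it, they were 1 of 15 linker and desmosome genes, 2 of 7 other intermediate filament genes, 4 of 20 epithelial genes, 6 of 19 actin and tubulin genes and 1 of the 2 other keratins. The medians of these lists with PGAM1 sgRNAs were -0.09, 0.05, -0.08, 0.09 and -0.14 in that order, beside 0.0060 over all genes.

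Keratin levels differed widely between culture states. The cells formed 10 clusters, made with all keratin genes left out. The clusters are called by their leading genes, and since they come from 1 library their levels are descriptions. Cluster 4, 540 cells led by IGFBP3, EGLN3 and CA9, genes known to be induced by low oxygen, had the highest KRT19, 4564 CPM, against 2107 CPM in all other cells. Its KRT18, at 3041 CPM, was the lowest of the 10 clusters, against 4493 CPM in all other cells. KRT19 thus exceeded KRT18 in this cluster, and the order was the other way round in each of the other 9.

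KRT15 stood at 89.2 CPM in cluster 4 (473 UMIs), against 26.9 CPM in all other cells, and KRT13 at 8.30 CPM (44 UMIs), against 1.11 CPM. KRT8 (1443 CPM) and KRT7 (2763 CPM) lay inside the range of the other clusters. The high KRT19 was present in each target group with at least 20 cells there, between 3980 and 5295 CPM. Thinned to 5000 UMIs per cell, 31.8% of the cells of cluster 4 had a KRT15 UMI, against 9.15 to 14.5% in clusters 0, 1, 2, 3, 6, 7 and 9, 19.7% in cluster 5 and 38.8% in cluster 8.

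Cluster 5, 1789 cells led by PSCA and AGR2, had the second highest KRT19, 3012 CPM, and high KRT8 (2044 CPM), with KRT15 at 46.5 CPM. It was almost entirely scored as G1 (97.1%), as was cluster 4 (98.0%). Cluster 6, 1040 cells led by S100A9 and C15orf48 and likewise 94.3% G1, had KRT8 at 1921 CPM, KRT18 at 5131 CPM and KRT19 at 2571 CPM. In contrast, cluster 1, 2167 cells led by INHBA and CYP1B1 and 91.8% G1, had KRT19 at 2071 CPM and KRT15 at 20.4 CPM. Keratin levels therefore differed between clusters that are all mostly G1.

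Of the clusters in which G1 cells were the minority, clusters 0, 3 and 9 had lower KRT19 than cluster 2. In cluster 9, which is described below and was 34.4% G1, KRT19 was at 1529 CPM. In cluster 0, 2260 cells led by HIST1H1D and CLSPN, KRT19 was at 1557 CPM and KRT8 at 1395 CPM, and in cluster 3, 795 cells led by HMMR and ASPM, at 1664 CPM and 1398 CPM. By phase, KRT19 was at 2635 CPM in G1, 1824 CPM in S and 1712 CPM in G2/M. KRT18 was highest in S (4996 CPM), with 4582 CPM in G1 and 3995 CPM in G2/M, and KRT8 was at 1754, 1788 and 1325 CPM in G1, S and G2/M. In the non-targeting sgRNAs (n = 4), the G1 range of KRT19 (2521 to 3441 CPM) lay above the ranges in S (1606 to 1920 CPM) and G2/M (1629 to 1778 CPM). For KRT18 the ranges in G1 (4304 to 5357 CPM) and S (4598 to 5156 CPM) overlapped. Those of KRT8 in G1 (1660 to 2182 CPM) and S (1664 to 1885 CPM) overlapped too. The ranges in G2/M lay below them for both genes.

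Cluster 2, 903 cells led by UBE2C and CDK1, had a median mitochondrial share of 5.83%, the lowest of the 10 clusters. It was scored mostly as G2/M (63.6%), but its KRT19, at 2385 CPM, lay above the 2178 CPM of all other cells and the 2071 CPM of cluster 1, which was mostly G1. Its KRT7 was at 2974 CPM and its KRT18 at 5085 CPM, both above those of clusters 0 and 3. The part of the low mitochondrial share in these levels was not tested.

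Smaller clusters stood further apart. Cluster 7, 220 cells led by C1orf56 and PHKG1, had the lowest KRT8 (792 CPM) and KRT19 (1277 CPM) but KRT18 at 5062 CPM, and it was the shallowest, with a median of 6709 UMIs. Cluster 9, 343 cells led by FABP5 and NPW, had KRT7 at 827 CPM, against 2496 CPM in all other cells. A KRT7 UMI was found in 74.9% of its cells (64.6% after thinning to 5000 UMIs), against at least 98.2% in each of the other clusters (98.8% after thinning), while KRT8, at 1629 CPM, was close to the 1609 CPM of all other cells. In the cells of cluster 9 with an assigned sgRNA KRT7 was at 1329 CPM, and in those with at most 10% mitochondrial UMIs at 1338 CPM, so its level there depends on which cells are counted. KRT81 (4.98 CPM, 19 UMIs, against 1.01 CPM in all other cells) and VIM (11.3 CPM, 43 UMIs, against 1.00 CPM) were higher in cluster 9. Only 13.4% of its cells had an assigned sgRNA, and the part of that in these levels was not tested.

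**Figure D5:**
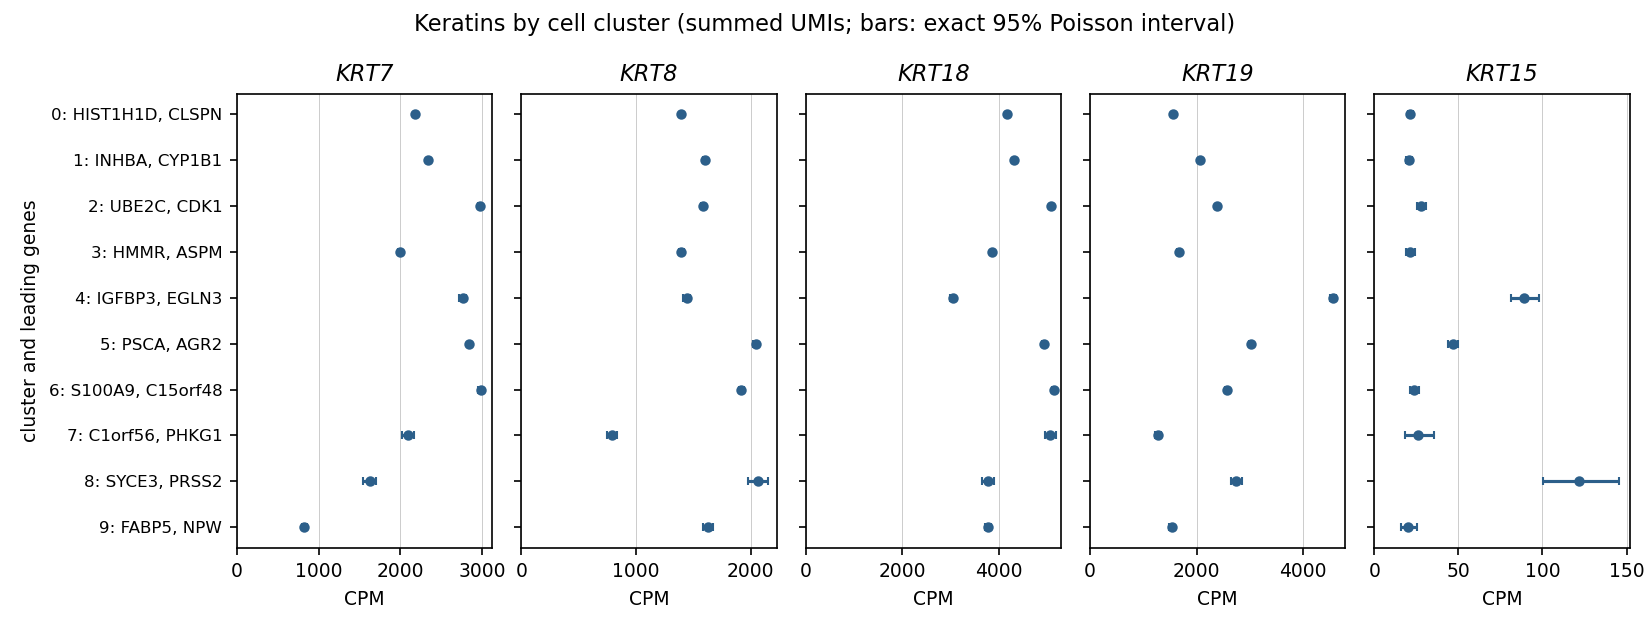
Level (CPM of summed UMIs, axes from 0, exact 95% Poisson intervals) of 5 keratins in 10 cell clusters, named by number and leading genes. KRT19 peaks in cluster 4 at 4564 CPM where KRT18 is lowest, KRT15 is high in clusters 4 and 8, KRT8 is lowest in cluster 7 and KRT7 in cluster 9.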

How the data were processed

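The deposited matrix holds raw counts of UMIs per gene or sgRNA and cell barcode (10847 barcodes, 36601 genes, 36 sgRNAs). Per the file headers it came from Cell Ranger 6.1.2, and per the submitters' processing notes the build was hg38. No source used here gives other upstream settings. The 2 samples, which are the sgRNA reads and the transcriptome reads of the same cells, share this matrix. The members, gene lists and tests were chosen with earlier results of these data known. Cells needed at least 1000 UMIs, 500 genes and at most 20% mitochondrial UMIs, and 705 barcodes were removed. A cell was assigned to an sgRNA with at least 5 UMIs and 80% of its sgRNA UMIs. No doublet caller was used, and assignment to a single sgRNA was the guard against doublets.

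Counts were summed per sgRNA with at least 20 cells, which gave 4 non-targeting, 4 PGAM1 and 2 MYC sgRNAs and 6 each of ATF4, CTCF, JUN and CTNNB1. They were tested with edgeR 4.0.16 (R 4.3.3): TMM scaling, edgeR's filter on low counts (11570 genes kept), 1 quasi-likelihood fit and Benjamini-Hochberg adjusted p-values over all genes within a contrast, with a threshold of 0.05. Held-out cells (2 to 4 sgRNA UMIs, at least 80%, at least 10 cells per sgRNA) were fitted likewise over 5809 genes. The test was checked on simulated data. Clusters were made with scanpy 1.11.5 (Leiden, resolution 0.6). Named genes were the members, other keratins from 1 CPM, up to 4 called genes per list and contrast, and the 5 genes most like KRT19 and KRT7. DESeq2 1.42.0 and the other alternatives are given in the closing section.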

Additional observations from a re-analysis of the deposited data

Results flagged for a closer look

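Among 48 groups of 4 to 6 sgRNAs, 7 held an sgRNA far from the others of its target by Dixon's criterion at 95%, which chance gives in about 1 in 20 groups. With CTCF sgRNA 3, KRT7 was at 1490 CPM (nearest other CTCF sgRNA 2270 CPM), KRT18 at 3538 CPM (nearest 4255 CPM), KRT10 at 178 CPM (nearest 223 CPM) and KRT80 at 40.0 CPM (nearest 18.9 CPM). These 4 flags belong to the same sgRNA, with 48 cells, of which 16 lay in the cluster led by SYCE3 and PRSS2. KRT19 was at 2445 CPM with JUN sgRNA 3, against 2191 CPM for the nearest JUN sgRNA. With PGAM1 sgRNA 1, KRT7 was at 2208 CPM, against 2409 CPM for the nearest PGAM1 sgRNA. KRT15 was at 5.41 CPM with PGAM1 sgRNA 2, against 21.7 CPM for the nearest PGAM1 sgRNA.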

How the results depend on the processing

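The count of members called with ATF4 sgRNAs, 2 as reported, was 0 with the stricter sgRNA rule, 3 at most 10% mitochondrial UMIs, 4 in a fit of the ATF4 and non-targeting sgRNAs alone, and 0 to 2 when each sgRNA was left out in turn, with 0 only without non-targeting sgRNA 4. With the sgRNAs labelled MYC, 0 as reported, it was 2 with DESeq2, 1 with a looser sgRNA rule, 2 in a fit of the target and controls alone and 0 to 1 leaving out each sgRNA, and with CTCF sgRNAs, 0 as reported, it was 1 without the filter on low counts. For JUN and CTNNB1 it stayed at 0 under each alternative run. With PGAM1 sgRNAs the log2 fold change of KRT19 was -0.72 with the stricter rule and -0.80 at most 10% mitochondrial UMIs, and that of KRT8 was -0.57 there. Leaving out each sgRNA gave -0.60 to -0.52 for KRT19, -0.43 to -0.36 for KRT8 and -0.38 to -0.29 for KRT18, and 0 to 0 calls in the held-out cells. In the same way KRT7 in the held-out cells ran from 0.10 to 0.29, and with CTCF sgRNAs KRT7 ran from -0.22 to -0.11 and KRT15 from 0.24 to 0.51. At most 10% mitochondrial UMIs, KRT19 was at 4781 CPM and KRT18 at 3172 CPM in cluster 4, and KRT7 at 1338 CPM in cluster 9; in assigned cells alone, KRT18 was at 2919 CPM in cluster 4 and KRT7 at 1329 CPM in cluster 9. Signs turned for KRT8 with sgRNAs labelled MYC in G1 cells (-0.030), for JUN with JUN sgRNAs at most 10% mitochondrial UMIs (0.065) and for CTCF with CTCF sgRNAs in G1 cells (0.20). The cause of these changes was not tested. ESRP1 lost its call with the stricter rule (edgeR adjusted p = 0.15) and at most 10% mitochondrial UMIs (0.11), and ACTG1 with the stricter rule (0.058). All genes called with ATF4 sgRNAs numbered 203. They were 94 with the stricter rule, 64 at most 10% mitochondrial UMIs and 308 in the fit of the target and controls alone. With sgRNAs labelled MYC they were 32, with DESeq2 68, with the looser rule 92 and alone 51. With CTCF sgRNAs they were 3, and without the filter 37. The contrast of the sgRNAs labelled MYC could not be fitted at most 10% mitochondrial UMIs, where none had 20 cells. Leaving out the cells of cluster 9 moved no count of members called, an alternative chosen after seeing the data. No paired analysis was possible because the sgRNA numbers of different targets name unrelated sgRNAs and the labels give no shared replicate numbers. KRT81 and KRT80 are limited by depth.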
